A study of Rattus norvegicus with 10 samples.

Results

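Solute carriers are membrane proteins that move nutrients, ions and metabolites across the plasma membrane and the membranes of organelles, and their gene symbols start with Slc. A gene was counted as a member when a probe was matched through its transcript identifier to a RefSeq symbol of the form Slc, number, letter, number, and when that probe stood clear of background (the scanner's mark) on 5 or more of the 10 arrays. The arrays carried 383 probes of 293 such genes, and 138 genes passed the filter, among 16779 genes tested in all. Levels are log2 values relative to the 75th percentile of the same array, so a level of 0 is that percentile, and differences are the Western-style mean minus the control mean, given with their standard error (SE).

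The samples were mammary tumours of female Sprague-Dawley rats, 5 from daughters of dams on a Western-style diet (WD1 to WD5; high in fat and poor in fibre and trace elements) and 5 from daughters of dams on control diet (CD1 to CD5). The dams ate these diets between gestational days 12 and 20 and again over postnatal days 1 to 21. All daughters of both groups were fed control diet once weaned, were injected at 3 weeks of age with 50 mg/kg of the alkylating carcinogen N-methyl-N-nitrosourea, and had tubular or papillary tumours taken at an age of 110 days. The labels name neither dam nor litter, so each p-value measures the spread between these tumours, which may include tumours of sisters.

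In the lactating and the transformed mammary gland, solute carriers bring in glucose, amino acids and zinc, export lactate and carry bicarbonate. Most Slc25 proteins sit in the inner mitochondrial membrane and exchange nucleotides, fuels and cofactors with the matrix. Slc39 proteins carry zinc into the cytosol, and Slc30 proteins carry it out of the cytosol into vesicles or out of the cell.

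Promoter sequence is shown for 5 members. Slc6a14, Slc22a15, Slc16a3 and Slc4a4 varied together between tumours with Slc39a6, whose window was counted but is not shown, and Slc2a1 is shown beside them as a textbook target of the hypoxia factors. Each run is the 250 bases before the annotated start in the RefSeq annotation of GRCr8, read 5′ to 3′ in the direction of transcription, and capitals mark the hypoxia response core (ACGTG or GCGTG on either strand, so CACGT and CACGC are the same core read from the other strand). Slc6a14 lies at chrX:117144676-117144925 on the + strand, Slc22a15 at chr2:192047361-192047610 on the - strand, Slc16a3 at chr10:106712078-106712327 on the + strand, Slc4a4 at chr14:19468283-19468532 on the - strand and Slc2a1 at chr5:138002272-138002521 on the + strand.
Slc6a14: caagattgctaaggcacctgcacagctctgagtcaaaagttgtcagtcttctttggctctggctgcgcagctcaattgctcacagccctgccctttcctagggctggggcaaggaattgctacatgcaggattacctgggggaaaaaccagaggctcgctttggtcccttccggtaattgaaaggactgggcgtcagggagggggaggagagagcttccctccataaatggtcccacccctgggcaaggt
Slc22a15: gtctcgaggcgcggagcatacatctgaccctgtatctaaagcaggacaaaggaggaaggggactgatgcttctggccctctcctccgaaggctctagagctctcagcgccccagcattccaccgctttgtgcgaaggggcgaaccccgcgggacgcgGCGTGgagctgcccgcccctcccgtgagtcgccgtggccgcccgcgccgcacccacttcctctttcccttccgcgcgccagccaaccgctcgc
Slc16a3: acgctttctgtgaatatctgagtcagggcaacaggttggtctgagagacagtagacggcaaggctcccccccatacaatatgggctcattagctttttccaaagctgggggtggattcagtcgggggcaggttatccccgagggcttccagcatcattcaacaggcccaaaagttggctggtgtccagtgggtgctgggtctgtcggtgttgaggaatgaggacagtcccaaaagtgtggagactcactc
Slc4a4: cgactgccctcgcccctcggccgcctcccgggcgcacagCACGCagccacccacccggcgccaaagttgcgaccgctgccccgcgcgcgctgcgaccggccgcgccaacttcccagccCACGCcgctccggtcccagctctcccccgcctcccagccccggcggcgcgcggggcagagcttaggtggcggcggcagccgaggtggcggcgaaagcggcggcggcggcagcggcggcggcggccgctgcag
Slc2a1: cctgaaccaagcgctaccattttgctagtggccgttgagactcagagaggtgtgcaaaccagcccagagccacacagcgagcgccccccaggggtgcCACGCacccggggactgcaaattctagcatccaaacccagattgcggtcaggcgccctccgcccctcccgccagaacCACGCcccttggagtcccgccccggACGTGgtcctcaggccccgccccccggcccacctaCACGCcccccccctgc
The Slc2a1 window held 4 cores, starting 153, 76, 51 and 16 bases before the start, the Slc4a4 window held 2, at 211 and 132 bases, and the Slc22a15 window held 1, at 93 bases. The Slc39a6 window held 3, at 199, 125 and 73 bases, and the Slc6a14 and Slc16a3 windows held 0. The promoter table covered 115 of the 138 members with 122 promoters, of which 58.2% held a core, against 36.7% of all 33469 promoters in the table. The base composition differed too, with a median GC content of 62.6% in the members' windows and 51.2% in all windows. In the same windows the E-box (CACGTG, which overlaps the core) stood in 13.9% of member promoters and 5.59% of all, and the antioxidant response element (TGACNNNGC) in 17.2% and 10.1%. The amino acid response element (TGATGNAA) stood in 2.46% and 3.4%, and the STAT5 site (TTCNNNGAA) in 4.1% and 7.67% (Slc16a3 among them). The full palindromic estrogen response element and the PPAR half-site pair stood in 0 member promoters and in 0.024% and 0.051% of all. The motifs were chosen with the levels known, and a match is a run of letters, not a site in use.

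The 75th percentile intensity ran from 72.8 to 170 in the Western-style group and from 85.0 to 226 in the control group, and 16686 to 21907 probes per array were well above background. All control arrays but CD3 (85.0) were brighter than each Western-style array, so array brightness and diet cannot be fully told apart. Luminal epithelial markers were present (11 of 13 kept, list level 2.51 to 3.08 and 2.89 to 3.57 in the Western-style and control groups), with a higher Western-style mean in 3 of 11. The same was so of 2 of 8 kept basal epithelial markers (1.54 to 2.55 and 1.83 to 2.96), 0 of 4 kept erythrocyte markers (-0.70 to 1.53 and -0.29 to 2.99) and 4 of 5 kept endothelial markers (-1.03 to -0.46 and -1.95 to -0.67). All 14 kept macrophage markers of 16 had a higher Western-style mean (levels 1.27 to 3.31 and 1.74 to 2.46), as had 11 of 11 kept fibroblast markers (2.07 to 3.64 and 1.46 to 2.97), 6 of 6 kept T and NK cell markers (0.12 to 1.79 and -0.44 to 0.77) and 4 of 4 kept adipocyte markers (-0.11 to 1.19 and -1.03 to 1.07), although Lep and Pparg were above background on 0 arrays and Adipoq on 4. Cell cycle genes had a higher Western-style mean in 1 of 15 (-1.16 to 0.84 and -0.58 to 1.21). Their part in the results below was not tested, and fewer cells of a type cannot be told apart from less RNA per cell.

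The first comparison asked whether the maternal diet went with different solute carrier levels in the daughters' tumours. No member passed the test (limma, Benjamini-Hochberg adjustment over all genes, adjusted p under 0.05), nor did any other gene, so the share called was 0.0% of 16779 genes and 0 of 138 members, with a lowest adjusted p of 0.181 among members. At an unadjusted p under 0.05, 19 members (13.8%) were counted, against 15.5% of all genes. Of these, 4 had the higher mean in the Western-style group (2.9% of members against 7.8% of all genes) and 15 the lower mean (10.9% against 7.72%). The share of members below this unadjusted threshold was close to that of the array as a whole, and the difference in the split of directions was not tested. Of the 19, 5 were above background in at most 2 Western-style tumours (Slc2a8, Slc17a9, Slc25a15, Slc39a2 and Slc41a3), and all 5 had the lower Western-style mean. Groups did not overlap with the Western-style tumours higher for 1 member, Slc26a2 (1.34% of all genes), and with them lower for 2 members, Slc2a8 and Slc17a9 (2.32% of all genes), each above background in 1 Western-style and 4 control tumours. In all, 59 members had a higher and 79 a lower Western-style mean, the lower share being 57.2% against 48.6% of all genes, and the median difference was -0.07 for the members and 0.01 for all genes.

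These unadjusted counts depended on how brightness and background were treated. With each array's 75th percentile as a covariate 4 members were below an unadjusted p of 0.05 (2 higher and 2 lower), 2 of them among the 19 (Slc2a8 and Slc17a9). Both were above background in 1 Western-style and 4 control tumours, so neither is read as a call that held. With normexp background correction 2 were (1 higher and 1 lower), both among the 19 (Slc28a2 and Slc25a17), and with dim probes left in 42 were higher and 12 lower. All 19 were below it with the slide as a block, where 27 were counted. Leaving out CD1 gave 12 and leaving out CD3 gave 31. With normexp the difference of 16 of the 19 shrank by over 1.5 times. That of 10 did so with the brightness covariate, that of 14 in the authors' deposited value table and that of 0 with the slide block. No sign turned in these 4 fits. The normexp fit adds an offset of 50 before the log, while the arrays' 75th percentile intensities were 72.8 to 226. Log differences of probes near or below that percentile therefore shrink by construction. Their smaller size with normexp, here and for the genes below, is no test of the difference. The deposited values keep the rank order of the median spot signals, and the cause of their shrinkage was not tested.

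**Figure D1:**
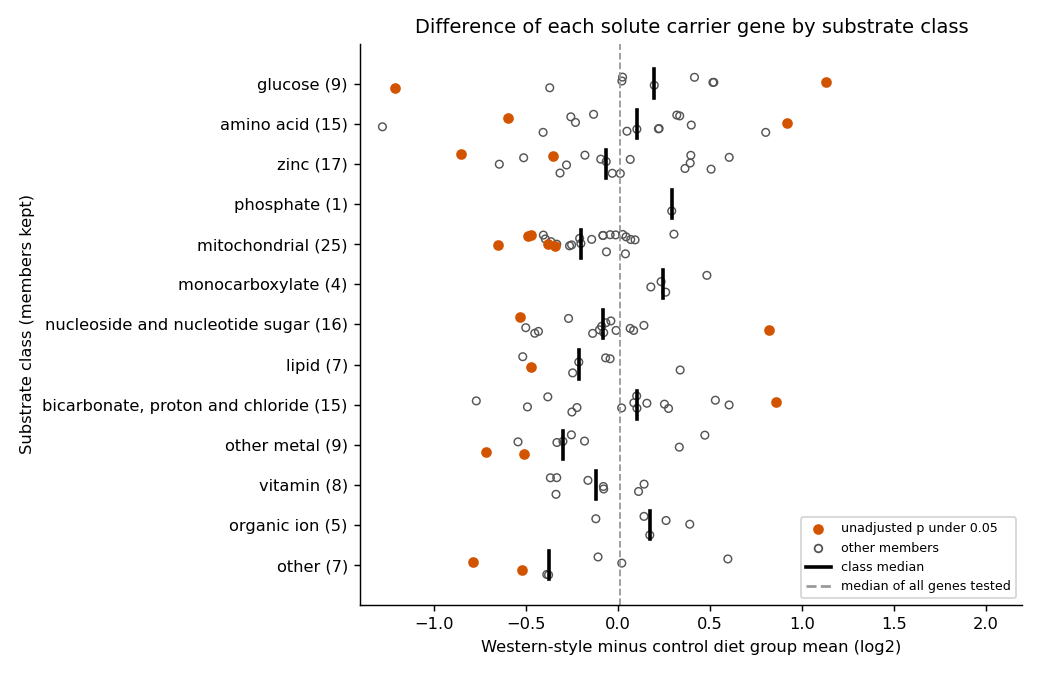
Western-style minus control difference of group means (log2) of the 138 members, 1 point a gene, in 13 substrate classes with the number of members kept in brackets; filled points have an unadjusted p under 0.05, black bars are class medians and the dashed line is the median of all genes (0.01). The mitochondrial points lie mostly left of the line (median -0.20) and no point passed the adjusted threshold.

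Among the 9 kept glucose and sugar carriers of 20 on the array, 7 had a higher and 2 a lower Western-style mean (median 0.20). Slc2a8, an intracellular hexose transporter, read -2.65, -4.08, -3.59, -3.47 and -2.97 in WD1 to WD5 and -2.65, -1.55, -2.50, -1.65 and -2.35 in CD1 to CD5. All Western-style tumours were below all control tumours, though WD1 and CD1 are equal to the second decimal, and the probe was well above background in 1 Western-style and 4 control tumours. The measured means differed by -1.21 (-1.81, -1.11 and -0.82 on slides 1, 2 and 3), and by -0.18 with normexp background correction. Since 4 of the 5 Western-style values were not well above background and the gene was kept almost only through the control tumours, the size is not fixed and no fold or p is given for it.

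Slc2a6, a hexose transporter of lysosomal membranes, lay in the other direction. Its levels were -2.14, -1.62, -0.67, 0.24 and -1.25 in WD1 to WD5 and -2.55, -2.14, -1.69, -2.75 and -1.95 in CD1 to CD5. WD4 stood highest and WD3 next, while WD1 was as low as the control tumours, so the groups overlapped. The difference was 1.13 ± 0.40 (SE, n = 5 and 5; 2.19-fold higher; limma unadjusted p = 0.016, adjusted p = 0.231), or 0.26 with normexp background correction. The macrophage list was also highest in WD4 (3.31), while WD3 and WD1 were nearly equal in it (2.80 and 2.79). A relation of Slc2a6 to that list was not tested.

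Slc2a1, the widespread basal glucose transporter, was measured by a probe printed 10 times on each array, whose spots differed by a median SD of 0.04. Its levels were 3.94, 3.48, 4.84, 4.67 and 4.36 in WD1 to WD5 and 3.60, 3.26, 4.34, 4.12 and 3.38 in CD1 to CD5. WD3, WD4 and WD5 and CD3 were the high tumours and the groups overlapped. The difference was 0.52 ± 0.29 (SE, n = 5 and 5; 1.44-fold higher; limma unadjusted p = 0.103, adjusted p = 0.410), 0.66 with the slide as a block (unadjusted p = 0.016) and 0.24 with array brightness as a covariate (unadjusted p = 0.525). The fructose transporter Slc2a5 differed by 0.52 ± 0.25 and the urate transporter Slc2a9 by 0.42 ± 0.23. Slc50a1, a sugar exporter, differed by -0.37 ± 0.26. Slc37a4, the glucose phosphate carrier of the endoplasmic reticulum, differed by 0.20 ± 0.20 and Slc45a3 by 0.03 ± 0.28. None of these passed the adjusted test. The insulin-responsive transporter Slc2a4 and the high-affinity transporter Slc2a3 were each above background on 2 arrays and were not kept.

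**Figure D2:**
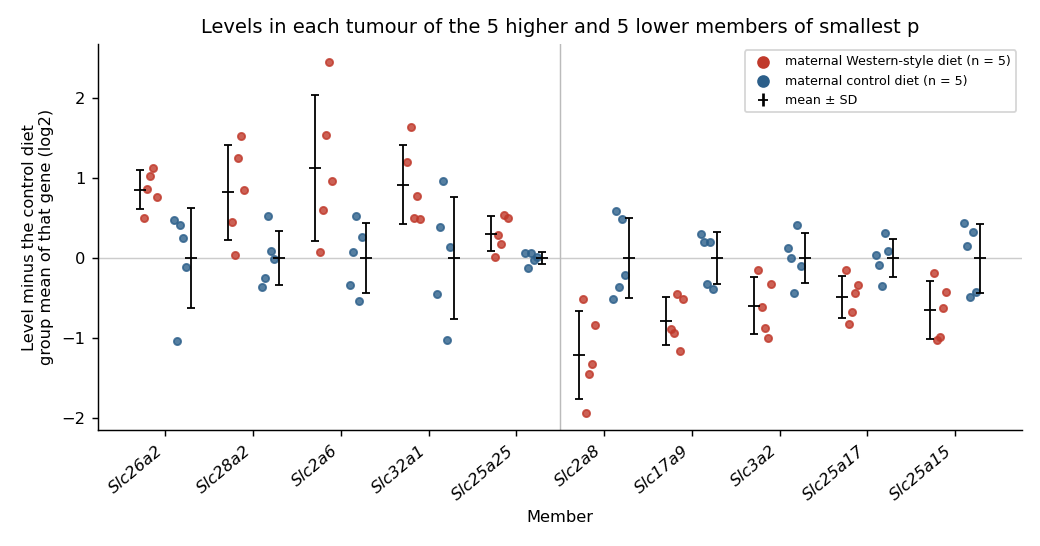
Level of each tumour minus the control group mean of the same gene (log2) for the 5 members of smallest unadjusted p in each direction, with the group mean ± SD (n = 5) beside the points. Western-style points of Slc2a8 and Slc17a9 lie below and those of Slc26a2 above every control point, while the other members overlap. Slc2a8, Slc17a9 and Slc25a15 were above background in 1, 1 and 2 Western-style tumours.

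Of the amino acid carriers, 15 of 52 genes were kept, with 9 higher and 6 lower Western-style means (median 0.10). Slc3a2 is the heavy chain that brings several amino acid transporters to the cell surface. Its levels were 3.83, 3.35, 3.09, 2.97 and 3.64 in WD1 to WD5 and 4.09, 3.97, 3.53, 4.38 and 3.88 in CD1 to CD5. CD4 was highest and WD4 lowest, and WD1 and WD5 fell within the control range. The difference was -0.60 ± 0.21 (SE, n = 5 and 5; 1.51-fold lower; limma unadjusted p = 0.016, adjusted p = 0.232), and it was lower on each slide (-0.38, -0.68 and -0.60). With array brightness as a covariate it was -0.29 (unadjusted p = 0.234).

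Slc7a5, a light chain partner of Slc3a2 that takes up large neutral amino acids, ran from -2.52 to -0.89. WD3 was lowest and CD4 highest, and the difference was -0.23 ± 0.30. The probe was above background in 3 Western-style and 5 control tumours, WD3 not among them. Slc1a5, a glutamine transporter, read 1.45, 1.92, 2.29, 1.26 and 1.22 in WD1 to WD5 and 2.62, 1.49, 0.19, 1.41 and 1.33 in CD1 to CD5. CD1 stood above and CD3 below all the others, so the control group spanned the whole range, and the difference was 0.22 ± 0.39. Slc38a2, a sodium-coupled neutral amino acid transporter, differed by -0.13 ± 0.16, and its second kept probe by -0.13. The cystine and glutamate exchanger Slc7a11 was above background on 0 arrays.

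Slc32a1, which loads GABA and glycine into vesicles, read -1.07, -0.63, -1.77, -1.49 and -1.79 in WD1 to WD5 and -2.72, -1.89, -1.31, -3.29 and -2.14 in CD1 to CD5. WD2 was highest, CD4 lowest, and the groups overlapped. The difference was 0.92 ± 0.36 (SE, n = 5 and 5; 1.89-fold higher; limma unadjusted p = 0.026, adjusted p = 0.265), above background in 3 tumours of each group, and on slide 2 alone it was 0.09. It was 0.25 with normexp background correction (unadjusted p = 0.373), 0.47 with array brightness as a covariate and 0.04 in the authors' deposited value table. Slc38a7, a lysosomal glutamine exporter, differed by 0.32 ± 0.17. Slc38a4, another neutral amino acid transporter, differed by 0.80 ± 0.46, with 2.61 on slide 3 and -0.49 on slide 1.

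Of the zinc carriers, 17 of 20 were kept, the fullest share of the 5 substrate classes used to choose names (glucose, amino acid, zinc, phosphate, mitochondrial). The 7 kept Slc30 exporters had 2 higher and 5 lower Western-style means, and the 10 kept Slc39 importers 5 and 5. Slc39a2 read -2.93, -1.0, -2.13, -2.28 and -1.49 in WD1 to WD5 and -1.11, -0.56, -1.90, -0.98 and -0.99 in CD1 to CD5. WD1 was lowest, WD2 and WD5 lay among the controls, and the measured means differed by -0.85, or -0.23 with normexp background correction. The probe was above background in 2 Western-style and 5 control tumours, so the control group alone met the filter and no fold or p is given. Slc30a7, which fills the Golgi with zinc, differed by -0.35 ± 0.16 (SE, n = 5 and 5; 1.28-fold lower; limma unadjusted p = 0.049, adjusted p = 0.320), lower in WD1 to WD5 than the control mean.

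Slc39a14, an importer of zinc and iron, had 3 kept probes that did not run the same way. The brightest read 0.06, -0.06, -0.47, -1.03 and -1.03 in WD1 to WD5 and -1.38, -0.54, -1.49, -1.50 and -0.63 in CD1 to CD5, with WD1 and WD2 on top, and differed by 0.61 ± 0.29. The other probes differed by -0.25 and -0.45, and the mean of the 3 by -0.03, so no direction is given for the gene. Slc39a8 differed by 0.51 ± 0.32 and Slc39a3 by -0.51 ± 0.32. The exporter Slc30a2, which moves zinc into milk vesicles, ran from -3.85 to -1.41, with WD1 and CD2 low. Its probe was above background in 3 Western-style and 4 control tumours, WD1 not among them. The exporter Slc30a5 was among the 3 steadiest members (within-group SD 0.10), though its other kept probes differed by 0.61 and -0.50 against -0.03 ± 0.12 for the brightest.

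The phosphate class was 1 kept gene of 8. Slc20a1, a sodium-phosphate cotransporter of the cell surface, read 1.36, 1.48, 1.83, 1.66 and 1.36 in WD1 to WD5 and 1.47, 0.95, 1.39, 1.19 and 1.22 in CD1 to CD5. CD2 was lowest and WD3 highest, and the groups overlapped. The difference was 0.29 ± 0.15, and 0.01 by its second probe, which followed the first weakly over the tumours (Pearson r = 0.12, n = 10, a description). Slc34a2, the phosphate cotransporter of secretory epithelia, was above background on 1 array.

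The mitochondrial carriers were the largest class, with 25 of 36 genes kept. Of these, 19 had a lower and 6 a higher Western-style mean, the median difference was -0.20, and differences ran from -0.65 to 0.30. At an unadjusted p under 0.05, 5 were lower and 0 higher, where 7.72% of all genes were lower. Of the 5, Slc25a15 was above background in 2 Western-style and 5 control tumours, so the control group alone met the filter for it. The class was set by the Slc25 symbol and holds Slc25a17, a carrier of the peroxisomal membrane. Without Slc25a17, 18 of 24 were lower, 4 of them (Slc25a15 included) at an unadjusted p under 0.05. The adjusted p was 0.236 at the least, so no single carrier was called. The count of lower means was 15 of 25 with normexp background correction (median -0.05), 18 of 25 with array brightness as a covariate, where 0 were below an unadjusted p of 0.05, and 17 to 22 of 25 on leaving out a tumour. The class had a median within-group SD of 0.27 between tumours, against 0.39 for all members and 0.34 for all genes. Other classes lay on both sides of 0.39, from 0.20 (phosphate, 1 gene) to 0.69 (monocarboxylate). The part of probe brightness in this was not tested.

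Slc25a20 carries acylcarnitines into the matrix for fatty acid oxidation. Its levels were 1.72, 1.38, 1.94, 1.73 and 1.92 in WD1 to WD5 and 2.24, 1.91, 2.22, 2.10 and 2.13 in CD1 to CD5. WD2 was lowest, and CD2 lay among the Western-style tumours. The difference was -0.38 ± 0.15 (SE, n = 5 and 5; 1.30-fold lower; limma unadjusted p = 0.025, adjusted p = 0.261), lower on each slide (-0.36, -0.34 and -0.25), -0.37 with array brightness as a covariate and -0.24 with normexp background correction (unadjusted p = 0.334).

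Slc25a11 exchanges oxoglutarate and malate and is part of the malate-aspartate shuttle. Its levels were 2.71, 2.92, 2.49, 2.81 and 2.65 in WD1 to WD5 and 3.62, 3.26, 2.71, 3.28 and 3.06 in CD1 to CD5. Of the control tumours, CD3 alone fell within the Western-style range. The difference was -0.47 ± 0.18 (SE, n = 5 and 5; 1.39-fold lower; limma unadjusted p = 0.022, adjusted p = 0.254). Slc25a15, the ornithine carrier of the urea cycle, read -2.01, -2.85, -2.81, -2.45 and -2.25 in WD1 to WD5 and -1.38, -1.68, -2.31, -1.49 and -2.25 in CD1 to CD5. CD3 and CD5 overlapped the Western-style tumours, of which 2 were above background against 5 control tumours. The measured means differed by -0.65, or -0.15 with normexp background correction, and no fold or p is given because the control group alone met the filter.

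Slc25a17, the peroxisomal member of the class, read -0.50, -1.17, -1.02, -0.79 and -0.69 in WD1 to WD5 and -0.31, -0.44, -0.70, -0.04 and -0.26 in CD1 to CD5. CD3 was again the control tumour among the Western-style ones, and the difference was -0.49 ± 0.17 (SE, n = 5 and 5; 1.40-fold lower; limma unadjusted p = 0.017, adjusted p = 0.236). It was -0.23 with array brightness as a covariate (unadjusted p = 0.249). Slc25a51, which imports NAD into the matrix, differed by -0.34 ± 0.15, and its 3 other kept probes by -0.53, -0.20 and -0.35.

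The ADP/ATP exchangers Slc25a4 and Slc25a5 were bright. Slc25a4 read 4.88, 4.51, 4.73, 4.39 and 4.85 in WD1 to WD5 and 5.15, 5.06, 4.63, 5.03 and 5.32 in CD1 to CD5. CD3 was the control tumour below WD1, WD3 and WD5, and the difference was -0.36 ± 0.17. Its other kept probes differed by -0.59 and -0.08. Slc25a5 differed by -0.14 ± 0.21 and its other probes by 0.10 and 0.09, so its direction depended on the probe. Slc25a3, the phosphate carrier that feeds ATP synthesis, differed by -0.01 ± 0.16.

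Slc25a25, a calcium-regulated carrier of ATP-magnesium and phosphate, was the mitochondrial member of highest difference. It read 2.26, 2.53, 2.42, 2.78 and 2.75 in WD1 to WD5 and 2.31, 2.12, 2.31, 2.22 and 2.25 in CD1 to CD5. WD4 and WD5 stood highest, WD1 lay among the controls, and the difference was 0.30 ± 0.14. The citrate exporter Slc25a1 differed by -0.39 ± 0.27, with WD4 lowest. Slc25a39 and Slc25a28 differed by -0.41 ± 0.20 and -0.08 ± 0.18.

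Other classes held the members of smallest p that remain. Slc26a2, a sulfate transporter, read -2.27, -1.90, -1.74, -1.64 and -2.0 in WD1 to WD5 and -2.29, -3.81, -2.35, -2.51 and -2.87 in CD1 to CD5. WD1, the lowest Western-style tumour, was just above CD1, the highest control tumour, and CD2 was far below the rest. The difference was 0.86 ± 0.28 (SE, n = 5 and 5; 1.81-fold higher; limma unadjusted p = 0.009, adjusted p = 0.207), above background in 4 Western-style and 3 control tumours, and 0.19 with normexp background correction.

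Slc17a9, which loads ATP into vesicles, read -3.10, -3.15, -2.66, -3.38 and -2.72 in WD1 to WD5 and -1.91, -2.01, -2.53, -2.01 and -2.60 in CD1 to CD5. No Western-style tumour reached a control tumour, although the probe was above background in only 1 of the 5 Western-style tumours and in 4 of the 5 control tumours. The measured means differed by -0.79, and by -0.18 with normexp background correction, and no fold or p is given for the same reason as for Slc2a8. Slc28a2, a concentrative transporter of purine nucleosides printed 10 times per array, read -0.04, -0.45, 0.77, 1.03 and 0.36 in WD1 to WD5 and -0.85, -0.73, 0.04, -0.40 and -0.50 in CD1 to CD5. WD4 and WD3 were highest and CD3 and CD4 overlapped the Western-style tumours. The difference was 0.82 ± 0.28 (SE, n = 5 and 5; 1.77-fold higher; limma unadjusted p = 0.014, adjusted p = 0.222), and 0.48 with normexp background correction (unadjusted p = 0.028), and the spots of the probe differed by a median SD of 0.08.

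Slc24a3, a potassium-dependent sodium and calcium exchanger, differed by -0.72 ± 0.30. The other 4 members under an unadjusted p of 0.05 were also lower in the Western-style group. They were the nucleotide sugar carrier family member Slc35c2 (-0.53 ± 0.21), the magnesium transporter family member Slc41a3 (-0.51, with 0.06 on slide 3, and above background in 1 Western-style and 5 control tumours), the urea transporter Slc14a1 (-0.52 ± 0.22) and the fatty acid transport family member Slc27a3 (-0.47 ± 0.21).

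By count, the nucleoside and nucleotide sugar class had 4 higher and 12 lower means of 16 kept, the lipid class 1 and 6 of 7, other metals 2 and 7 of 9, vitamins 2 and 6 of 8, and the mixed class of remaining substrates 2 and 5 of 7. Bicarbonate, proton and chloride carriers had 10 higher and 5 lower of 15, monocarboxylate carriers 4 and 0 of 4 and organic ion carriers 4 and 1 of 5. Slc40a1, the iron exporter, differed by -0.33 ± 0.20. Slc12a2, a sodium-potassium-chloride cotransporter, ran from 0.99 to 3.14, with CD4 highest, and differed by -0.38 ± 0.40. The nucleoside transporter Slc29a1 differed by 0.07 ± 0.26 and the fatty acid transporter Slc27a1 by -0.25 ± 0.24. The iodide transporter Slc5a5 and the phagocyte metal transporter Slc11a1 were above background on 0 arrays, the erythrocyte anion exchanger Slc4a1 on 1, and no probe was named Slc16a1 through RefSeq.

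The spread between tumours of the same diet was wide for some solute carriers. The within-group SD ran from 0.06 to 1.83 over the members, with a median of 0.39 against 0.34 for all genes. In all, 25 members (18.1%) spanned 4-fold or more over the 10 tumours, and 16.1% of all genes did.

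Slc7a3, a transporter of arginine and lysine, varied most. It read -2.34, 1.73, 1.50, -2.27 and 0.40 in WD1 to WD5 and 1.83, -0.88, 0.23, 0.78 and 3.47 in CD1 to CD5. WD1 and WD4 were low and CD5 high, a measured span of 55.8-fold, and the difference was -1.28 ± 0.98, or -0.56 with normexp background correction. The Slc7a3 probe was above background in 4 Western-style and 5 control tumours, WD4 not among them, so the size of the span is not fixed. Slc13a3, a dicarboxylate transporter, spanned 25.4-fold. It read -0.44, 1.24, 2.08, 1.12 and 0.55 in WD1 to WD5 and 2.05, -1.59, 0.30, -1.94 and 2.73 in CD1 to CD5. CD2, CD4 and WD1 were low and the other tumours above 0. The members most like Slc7a3 over the 10 tumours were Slc25a27 (Pearson r = 0.70), Slc50a1 (0.64) and Slc24a3 (0.63), and those most like Slc13a3 were Slc30a5 (0.69), Slc35a3 (0.67) and Slc25a27 (0.66), all values a description over 10 tumours that share their arrays and their makeup.

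A set of members around Slc6a14 moved together. Slc6a14, which takes up neutral and cationic amino acids, read -0.78, -1.20, -0.99, 1.78 and 0.20 in WD1 to WD5 and -0.24, -2.20, 1.51, -0.19 and -1.54 in CD1 to CD5, a 15.8-fold span. WD4 and CD3, 1 tumour of each diet, were high. Its likest members were the zinc importer Slc39a6 (Pearson r = 0.93), the orphan organic ion carrier Slc22a15 (0.93) and the lactate exporter Slc16a3 (0.89), again as a description over 10 tumours.

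Slc39a6 read 3.96, 3.24, 3.59, 4.77 and 4.32 in WD1 to WD5 and 3.52, 2.89, 4.44, 4.07 and 3.13 in CD1 to CD5. Slc22a15 read 2.51, 2.20, 1.73, 3.76 and 2.60 in WD1 to WD5 and 2.41, 1.21, 3.34, 1.95 and 1.94 in CD1 to CD5. Slc16a3 read 4.11, 3.93, 3.51, 5.40 and 4.93 in WD1 to WD5 and 4.44, 3.40, 4.85, 4.93 and 3.08 in CD1 to CD5. In each of them WD4 was the highest tumour, CD3 was above the group mean, and CD2 and CD5 were among the lowest. The bicarbonate cotransporter Slc4a4 was also highest in WD4 and next in CD3, and ran from -3.14 to 0.27. It was above background in 3 tumours of each group, and was likest to Slc39a6 (0.88), the fructose transporter Slc2a5 (0.87) and Slc6a14 (0.82). None of them passed the test between diets (limma, adjusted p of 0.634 or more), the differences being 0.34 ± 0.72 for Slc6a14, 0.36 ± 0.35 for Slc39a6, 0.39 ± 0.42 for Slc22a15, 0.23 ± 0.45 for Slc16a3 and 0.60 ± 0.59 for Slc4a4. In WD4 and CD3 the cell cycle list was at -1.16 and -0.58 and the milk protein list at -1.99 and -0.96, the lowest of each group, and the part of tumour makeup in the pattern was not tested. Of the 5 promoter windows of this set, those of Slc39a6, Slc4a4 and Slc22a15 held 3, 2 and 1 hypoxia cores and those of Slc6a14 and Slc16a3 held 0.

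A second set joined the inositol transporter Slc5a3, the lysosomal carrier Slc46a3, Slc35e4 and the zinc exporter Slc30a4. Slc5a3 read -0.58, -1.36, -2.63, -2.11 and -1.02 in WD1 to WD5 and -1.06, -1.19, -2.99, -0.40 and -2.17 in CD1 to CD5. CD3, WD3, CD5 and WD4 were the lowest. The probe was above background in 3 Western-style and 4 control tumours, and WD3, WD4 and CD3 were not among them. Slc46a3 read -1.83, -3.68, -3.93, -3.23 and -2.10 in WD1 to WD5 and -1.92, -2.05, -3.95, -2.01 and -3.19 in CD1 to CD5, with 2 Western-style and 3 control tumours above background, and CD3, WD3 and WD2 were low. Slc5a3 was likest to Slc35e4 (Pearson r = 0.90), Slc46a3 (0.87) and Slc39a3 (0.80), and most opposed to the mitochondrial carrier Slc25a16 (-0.94). Slc46a3 was likest to Slc35e4 (0.92) and Slc30a4 (0.88).

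Slc30a4, which moves zinc into vesicles of the secretory mammary cell, read -0.25, -1.51, -2.20, -1.40 and -0.09 in WD1 to WD5 and 0.02, -0.58, -1.14, 0.04 and -0.56 in CD1 to CD5. WD3, WD2 and WD4 were low, and the difference was -0.64 ± 0.40, or 0.12 with array brightness as a covariate. The probe of Slc30a4 was above background in 3 Western-style and 5 control tumours. The milk protein list read 2.35, 2.83, -0.10, -1.99 and 2.02 in WD1 to WD5 and 2.68, 2.97, -0.96, 2.20 and 0.13 in CD1 to CD5. WD3, WD4, CD3 and CD5 were lowest in both the milk protein list and Slc5a3, and they are the 4 tumours of slide 2, so milk protein level and slide cannot be told apart for Slc5a3. The dimmest arrays were WD3, WD2, CD3 and WD4 (75th percentile intensity 72.8, 81.0, 85.0 and 98.6), and these are the 4 lowest tumours of Slc46a3, Slc35e4 and Slc30a4. With array brightness as a covariate the difference was 0.65 for Slc46a3, 0.22 for Slc35e4 and 0.87 for Slc5a3, against -0.33 ± 0.50, -0.43 ± 0.36 and 0.02 ± 0.51 without it.

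**Figure D3:**
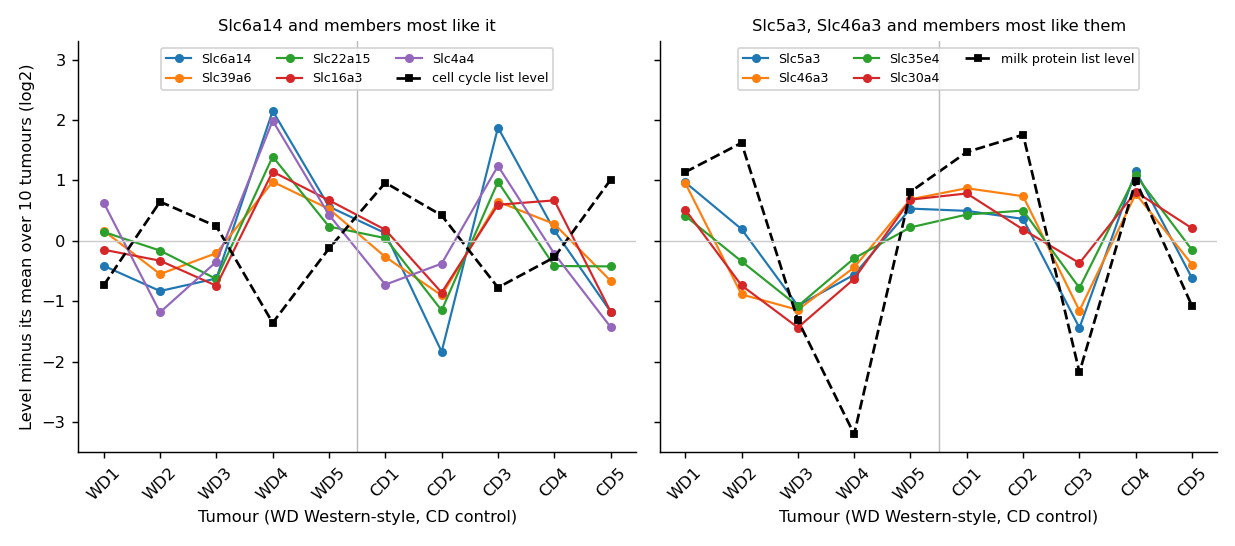
Levels minus their mean over the 10 tumours (log2), by tumour, for Slc6a14 and 4 members that varied with it (left, with the cell cycle list as a dashed line) and for Slc5a3, Slc46a3, Slc35e4 and Slc30a4 (right, with the milk protein list dashed). The left set is high in WD4 and CD3, where the cell cycle list is low (Slc16a3 also in WD5 and CD4), and the right set is below its mean in WD3, WD4 and CD3.

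Members were set against the levels of gene lists that share their textbook role, in 16 pairs, of which 10 had a measured member. The list level of a tumour was the mean of the kept genes of the list without any Slc gene, p-values came from 100000 permutations (two-sided), and adjusted values cover the 10 pairs. Slc25a20 and the fatty acid oxidation list went together (Pearson r = 0.88, permutation p = 0.001, adjusted p = 0.011; Spearman rho = 0.81, permutation p = 0.008, adjusted p = 0.053; n = 10). Without WD2 and WD4, r was 0.73 (permutation, adjusted p = 0.234), so the call was lost at the 8 tumours left, and no other pair of tumours was left out. Over deviations from the diet group means r was 0.71 (permutation, adjusted p = 0.0955), and over deviations from the slide means it was 0.92 (permutation, adjusted p = 0.0014). These permutations shuffled the deviations over all 10 tumours, without allowance for the means taken out. Such p-values, here and for the pairs below, tend to be too small and are not read as calls. The list itself ran from 2.09 to 2.37 in the Western-style and from 2.38 to 2.58 in the control tumours, without overlap. WD5 (2.3711) lay only just below CD4 (2.3755), and the list level was not tested between diets.

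Slc16a3, which exports lactate, went with the hypoxia and glycolysis list (Pearson r = 0.78, permutation p = 0.007, adjusted p = 0.036; Spearman rho = 0.78, permutation p = 0.011, adjusted p = 0.053; n = 10). Without CD4 and CD5, r was 0.71 (permutation, adjusted p = 0.234), so this call too was lost at 8 tumours. Over deviations from the diet group means r was 0.82 (permutation, adjusted p = 0.0282), and over deviations from the slide means it was 0.70 (permutation, adjusted p = 0.0779). Slc2a1 had r = 0.51 with the same list (permutation p = 0.132, adjusted p = 0.330) and rho = 0.48, with 0.51 without CD4 and CD5. Of the 13 kept genes of that list, 6 had a higher Western-style mean. The kept glycolytic enzymes (Aldoa, Gapdh, Pgk1, Eno1, Pkm and Ldha) were all lower. Which genes of the list Slc16a3 or Slc2a1 followed was not tested. The within-slide check leaves 3 or 4 tumours a slide, too few for a coefficient of each.

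The other 7 tested pairs did not pass, with adjusted permutation p-values of 0.330 or more for Pearson r. Slc39a6 and the luminal epithelial list had r = -0.51 (permutation p = 0.131; rho = -0.47, p = 0.180), and r = -0.56 without WD4 and CD4. Over deviations from the slide means r of that pair was -0.81 (permutation, adjusted p = 0.0293, not read as a call). Over deviations from the diet group means it was -0.44 (permutation, adjusted p = 0.350). Slc30a2 and the milk protein list had r = -0.43 (permutation p = 0.198; rho = -0.48, p = 0.166), and r = -0.28 without WD4 and CD3 and 0.11 over deviations from the slide means. Slc30a2 was above background in only 3 Western-style and 4 control tumours. Slc27a1 and the adipocyte list had r = 0.36 (permutation p = 0.300; rho = 0.31, p = 0.388), and r = 0.12 without WD5 and CD2, 0.67 over deviations from the diet group means (permutation, adjusted p = 0.0955) and 0.19 over deviations from the slide means. Slc25a1 and the fatty acid synthesis list had r = 0.36 (permutation p = 0.314; rho = 0.22, p = 0.534), and r = -0.27 without WD4 and CD1. For Slc29a1, Slc7a5 and Slc30a1 against the cell cycle, cell cycle and metal response lists, r was -0.25, -0.15 and 0.14 (permutation p = 0.477, 0.698 and 0.696) and rho was -0.37, -0.02 and 0.19 (p = 0.296, 0.974 and 0.605). Slc7a5 was above background in 3 Western-style and 5 control tumours.

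**Figure D4:**
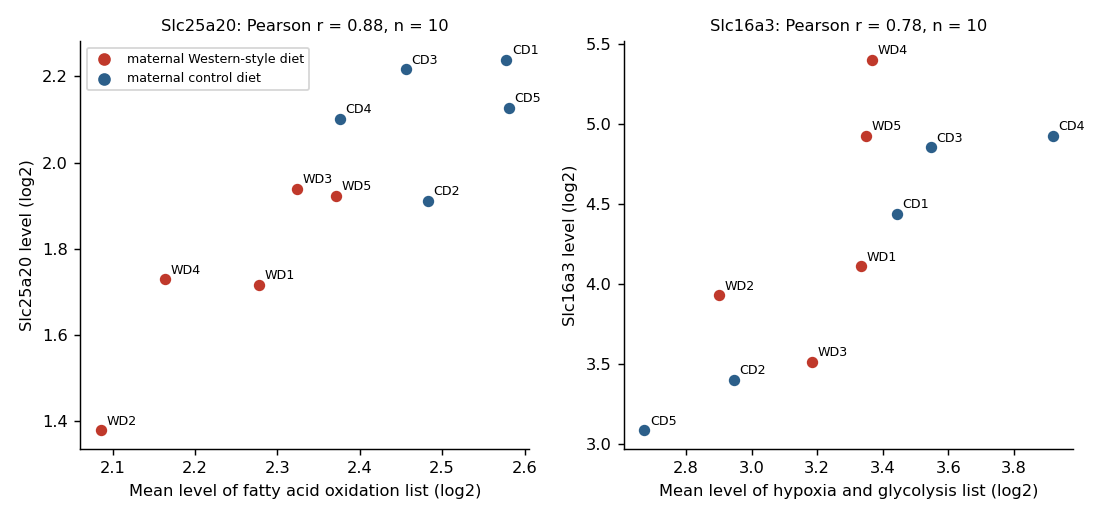
Level of Slc25a20 against the mean level of the fatty acid oxidation list (left) and of Slc16a3 against the mean level of the hypoxia and glycolysis list (right), both log2, 1 point a tumour (n = 10). The points run from lower left to upper right (r = 0.88 and 0.78), and in the left panel the Western-style tumours lie at lower list levels than all control tumours. There WD5 (2.3711) lies only just below CD4 (2.3755).

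For 33 members the array carried more than 1 kept probe, giving 42 other probes. Of these, 24 differed in the same direction as the brightest probe and 18 in the other, and the median correlation with the brightest over the 10 tumours was 0.44. Probes agreed closely for Slc25a39 (r = 0.98, differences -0.41 and -0.44), Slc44a2 (r = 0.98, -0.52 and -0.59) and Slc12a2 (r = 0.94, -0.38 and -0.40). They disagreed for the choline transporter family member Slc44a1 (r = -0.71, 0.34 and -0.55; the only one of the 42 pairs whose probes carry different transcript identifiers) and for Slc35f5 (r = -0.65, -0.45 and 0.26). Slc22a15's second probe followed the first over the tumours (r = 0.75) and differed by -0.15 between diets. A gene with 1 probe had no such check, and Slc2a8, Slc17a9, Slc26a2 and Slc3a2 were among them.

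**Figure D5:**
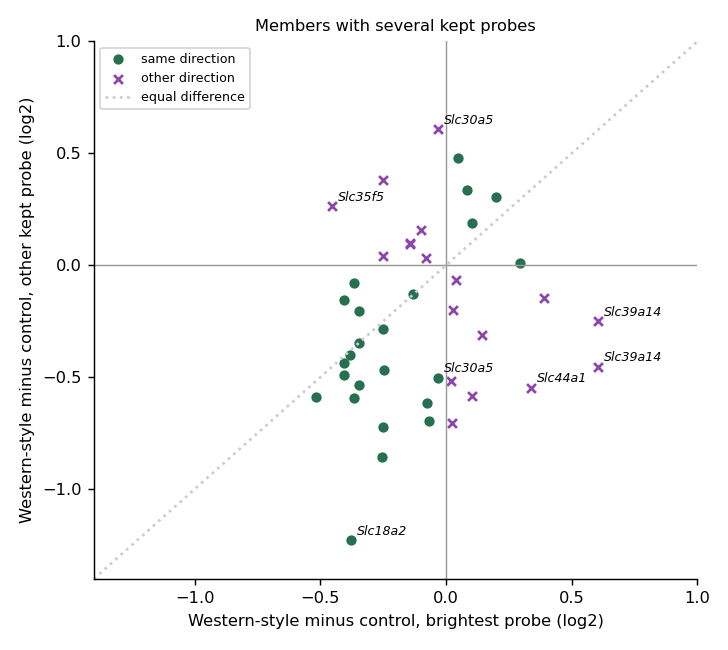
Western-style minus control difference (log2) of the brightest kept probe of a gene against that of each of its other kept probes, 42 points from 33 members. Circles (24) lie in the quadrants of equal direction and crosses (18) in the others; the dotted line marks equal differences.

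Of the 155 solute carrier genes that were not kept, 111 were above background on 0 arrays and 44 on 1 to 4, so no level is given for them. Of the 138 kept, 100 were above background on all 10 arrays and 38 on 5 to 9. Among the 19 members under an unadjusted p of 0.05, 10 were above background on all 10 arrays, and 18 differed in the same direction on all 3 slides, Slc41a3 being the exception. The slides split the same 10 tumours by which the 19 were picked, so this agreement is no separate check.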

How the data were processed

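Total RNA of 10 tumours, 200 ng each, was labelled with Cy3 and hybridised to Agilent whole rat genome arrays, 1 array a tumour. Feature Extraction read the scans, in version 11.5.1.1 per the file headers and 15.5 per the submitters' processing notes. Each deposited array file holds spot intensity values (processed signals, background-subtracted and unscaled per the file headers, and median spot and background signals) and deposited marks of 0 or 1 for spots well above background, outliers or saturated. The deposited series matrix holds log2 values whose centring is common to all arrays (column medians 6.97 to 6.98); its tool is not given in any source used here. Its rows were matched by order, and each column's rank order was that of its array's median signals (Spearman correlation 1 on all 10 arrays).

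From the log2 processed signals of an array their 75th percentile over 43379 measuring spots was subtracted. Outlier spots were left out, spots of a probe averaged, and probes well above background on at least 5 arrays kept (19745 of 41012). The brightest kept probe stood for a gene. Symbols came from transcript identifiers through RefSeq (GRCr8, 17502 probes matched), since the files hold no gene name column. The array annotation names the rn4 build, so its coordinates were not used with GRCr8. Promoters are RefSeq's, with GRCr8 coordinates.

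Groups were compared with limma 3.58.1 (R 4.3.3, the data.table package in version 1.17.8) and Benjamini-Hochberg adjustment over 16779 genes, tested first on simulated data. Relations and plots used Python 3.11.15, scipy 1.17.1 and matplotlib 3.10.9. Slides 1, 2 and 3 held WD1, WD2 and CD2, then WD3, WD4, CD3 and CD5, then WD5, CD1 and CD4, with 1 scan a slide, which makes scan and slide the same factor. The number of arrays limits the precision.

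The members, classes, lists and tests were chosen with earlier results of these data known. Named genes are the 5 of smallest unadjusted p in each direction, the 3 of smallest p in each of the glucose, amino acid, zinc, phosphate and mitochondrial classes, the 6 of largest and 3 of smallest spread, 27 genes fixed by name, and the 3 likest members of each of the 6 (57 genes, 49 kept); others in the text were named after their values were seen. Alternatives were normexp (offset 50, on median signals, since the files hold no mean signal as first planned), quantile normalization, the matrix values, filters on dim probes, probe means, slide, brightness, a replicate block and leaving out each tumour.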

Additional observations from a re-analysis of the deposited data

Results flagged for a closer look

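Slc25a32, the mitochondrial folate carrier and 1 of the 3 steadiest members, stood apart in CD3. Its level there was -0.23, and the other 4 control tumours lay between -0.67 and -0.63, so the gap to the nearest was 0.897 of the whole range, above the 95% critical value of 0.71 for 5 samples. It was the only such value in 98 groups of 5 tumours examined (49 named members, 2 diets), and chance gives about 1 in 20, a higher rate than was seen. The Western-style tumours lay between -0.72 and -0.46 for Slc25a32, so CD3 was the control tumour farthest from them. For Slc25a11, Slc25a17 and Slc25a4, in contrast, CD3 was the control tumour nearest the Western-style tumours.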

How the results depend on the processing

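The count of members at an adjusted p under 0.05 was 0 under each of the 19 alternatives, and the lowest adjusted p of a named member was 0.112. Of 49 named differences, 31 kept their sign in each alternative and 18 did not. At an unadjusted p under 0.05 the 19 members became 2 with normexp (1 higher, 1 lower; 2.96% of all genes), 54 with dim probes left in (42 higher and 12 lower among 293; 19.6% of all genes) and 4 with array brightness as a covariate (2 and 2; 5.74%), and leaving out each tumour gave 12 (without CD1) to 31 (without CD3). Same-numbered tumours of the 2 diets did not deviate together (correlations -0.017 to 0.16), and 0 of 10 tumours correlated best with their own number, so the numbers pair nothing; with a replicate block the count was 21 (7 higher, 14 lower). Members whose groups do not overlap numbered 1 with normexp, 6 in the deposited table, 5 without a filter, 0 among probes above background on all 10 arrays, and 3 to 11 on leaving out a tumour (11 without CD3). The median difference was 0.26 without a filter (0.34 over all genes) and below 0 in the others. The count of mitochondrial carriers with a lower Western-style mean, added after seeing the data, stayed at 15 to 22 of 25. The offset of 50 in the normexp fit shrinks differences of dim probes by construction, so that shrinkage is no test of them. The cause of the changes in these counts and medians was not tested, other than the number of genes entered.

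Signs turned as follows. With array brightness as a covariate: Slc46a3 0.65, Slc6a14 -0.32, Slc30a5 0.012, Slc7a5 0.24, Slc30a4 0.12, Slc25a1 0.085, Slc25a5 0.11, Slc29a1 -0.15, Slc27a1 0.074 and Slc35e4 0.22. With normexp: Slc5a3 -0.11, Slc30a5 0.015, Slc25a27 0.0009 and Slc35a3 0.036. Slc5a3 was -0.062 after quantile normalization and -0.034 in the deposited table, where Slc35a3 was 0.0019. With the mean of a gene's probes, Slc39a14 was -0.033, Slc30a5 0.025 and Slc25a5 0.017. Leaving out a tumour gave -0.34 to 0.31 for Slc5a3, -0.16 to 0.85 for Slc6a14, -0.062 to 0.0068 for Slc30a5, -0.10 to 0.020 for Slc25a32, -0.085 to 0.52 for Slc1a5, -0.61 to 0.10 for Slc30a2, -0.029 to 0.45 for Slc16a3, -0.13 to 0.22 for Slc29a1, -0.24 to 0.055 for Slc25a27 and -0.18 to 0.076 for Slc35a3.

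The relation of Slc16a3 was r = 0.71 without the 2 tumours farthest in list level and 0.70 over slide deviations, that of Slc25a20 0.73 without 2 tumours and 0.71 over group deviations, none of these 4 past the adjusted threshold. Slc25a1 was -0.27 without 2 tumours. Over slide deviations Slc30a2 was 0.11 and Slc30a1 -0.0049, and Slc39a6 with the luminal list was -0.81 (permutation, adjusted p = 0.0293). That p-value makes no allowance for the slide means taken out and is not read as a call. Dim members (38 not above background on all arrays) are limited by signal over background.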
